A study of Mus musculus with 14 samples.

Results

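Integrins are the transmembrane receptors by which cells hold their matrix, each made of an alpha and a beta subunit that together set the ligand. The 10 genes described here are 6 alpha subunits (Itga5, Itga6, Itga7, Itga8, Itga11 and Itgav), 3 beta subunits (Itgb1, Itgb3 and Itgb5) and Itgbl1, a secreted protein with repeats like those of beta subunits that is not itself a receptor subunit. They were listed by name, with earlier results of these data known, and all 10 were found among the 22136 genes present in both deposited tables. The messenger RNA of mouse ventricles was sequenced in 14 polyA-enriched libraries: 3 sham and 4 TAC libraries of wild type (WT), and 3 sham and 4 TAC libraries labelled Rad knockout (Rad KO). TAC, transverse aortic constriction, narrows the aortic arch and loads the left ventricle with pressure, and sham animals are operated on without narrowing it. The labels of all 14 libraries, WT and sham included, say alike that tamoxifen was given 4 weeks after TAC. Hearts were taken over 2 months after the operation and over 1 month after the knockout. Rad, encoded by Rrad, restrains the cardiac L-type calcium channel. Strain, age, sex, the Cre driver and whether each library came from its own animal are details not given in the sources used here. The p-values therefore measure only how these libraries vary.

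In heart muscle, integrins link the laminin around each cardiomyocyte and the fibronectin and collagen made by fibroblasts to the actin cytoskeleton. On the inner face of the membrane, alpha tails carry a conserved motif next to the membrane that keeps the receptor at rest. Beta tails carry Asn-Pro-any-Tyr motifs, or looser Asn-any-any-Tyr forms, that bind talin and kindlin, the proteins that activate the receptor. Signals then run through focal adhesion kinase and its relatives.

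The coding ends of the 10 genes are shown because they set the receptor subunits apart from Itgbl1. The sequences are from the principal transcripts of GENCODE M21 (GRCm38), coding strand, 5′ to 3′. For the 6 alpha subunits a stretch of 45 bases is given, with each codon that encodes the residue of the conserved membrane motif at its place in capitals.
Itga5: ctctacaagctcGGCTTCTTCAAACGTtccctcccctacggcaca
Itga6: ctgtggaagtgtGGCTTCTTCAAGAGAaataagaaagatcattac
Itga7: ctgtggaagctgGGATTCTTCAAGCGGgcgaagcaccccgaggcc
Itgav: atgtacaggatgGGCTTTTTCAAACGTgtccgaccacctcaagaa
Itga8: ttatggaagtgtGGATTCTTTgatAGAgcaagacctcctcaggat
Itga11: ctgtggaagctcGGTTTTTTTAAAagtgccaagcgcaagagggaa
Itga5, Itga6, Itga7 and Itgav held all 5 codons of the motif, and Itga8 and Itga11 held 4 of 5. For the beta subunits and Itgbl1 the last 141 bases before the stop codon are given, with each Asn-Pro-any-Tyr in capitals.
Itgb1: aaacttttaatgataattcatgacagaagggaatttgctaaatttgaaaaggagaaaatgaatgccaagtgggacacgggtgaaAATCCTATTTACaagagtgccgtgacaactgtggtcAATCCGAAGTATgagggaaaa
Itgb3: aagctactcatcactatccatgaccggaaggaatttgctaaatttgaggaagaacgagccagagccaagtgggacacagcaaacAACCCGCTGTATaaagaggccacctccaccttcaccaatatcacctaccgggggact
Itgb5: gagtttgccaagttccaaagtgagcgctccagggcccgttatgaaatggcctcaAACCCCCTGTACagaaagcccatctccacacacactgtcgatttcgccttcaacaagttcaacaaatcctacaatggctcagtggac
Itgbl1: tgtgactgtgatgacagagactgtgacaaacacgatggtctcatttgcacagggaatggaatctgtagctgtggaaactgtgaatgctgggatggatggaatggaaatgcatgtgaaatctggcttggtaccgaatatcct
This end held 2 such motifs in Itgb1, 1 each in Itgb3 and Itgb5, and 0 in Itgbl1. Only this exact form was searched. The looser Asn-any-any-Tyr (aatatcacctac in Itgb3, aacaaatcctac in Itgb5) is not marked, so the count is not one of activator sites. Itgbl1 has 494 codons, against 798 in Itgb1, 787 in Itgb3 and 799 in Itgb5.

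Before any comparison, the libraries were read against their labels. Total counts ran from 14546176 to 23314792 per library. Mitochondrial genes took 20.1 to 22.7% of the counts in WT sham and 18.2 to 21.2% in WT TAC. They took 24.2 to 28.4% in Rad KO sham, highest in sham 1, and 20.1 to 22.0% in Rad KO TAC, with no overlap, and the part of this in the results was not tested. Rrad stood at 199 to 231 CPM (counts per 1000000, scaled for library composition) in WT sham, 127 to 243 CPM in WT TAC, 160 to 228 CPM in Rad KO sham and 120 to 241 CPM in Rad KO TAC, so the ranges of the targeted gene overlapped between the labels. The deleted part of Rrad, not given in the sources used here, may leave exons that still yield reads. Whether that or something else made the ranges overlap was not tested. Every direction drawn from that label below rests on the label alone. Esr1, an oestrogen receptor gene, parted libraries within a label. In CPM, WT sham 1 to 3 read 1.27, 1513 and 2217, and Rad KO sham 1 to 3 read 2004, 1.12 and 1929. In the TAC groups it was 0.558 to 1.61 CPM in WT and 336 to 2471 CPM in Rad KO. Values for the integrin genes are therefore also given without WT sham 2 and 3 and without Rad KO sham 2. The ventricle label was read from markers: all 8 cardiomyocyte markers were present, with a summed level of 43710 to 67380 CPM over the libraries, and the 4 atrial markers summed to 2.48 to 6.67 CPM, with Sln at 0 in the 3 WT sham libraries.

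Itgb1, the beta subunit shared by most matrix receptors of muscle, had the highest level of the 10 genes in each group. Levels can be compared between genes only per length, here as CPM per kb of gene length. On that scale Itgb1 stood at 103.6 in WT sham (100.4 to 107.7 over the libraries), followed by Itgb5 at 32.1, the muscle laminin receptor subunit Itga7 at 23.0, the fibronectin receptor subunit Itga5 at 10.6 and the laminin receptor subunit Itga6 at 8.91. None of these 5 overlapped its neighbour in the order. Next came Itgav, which pairs with several beta subunits, at 2.78, then Itgbl1 at 1.91 and the collagen receptor subunit Itga11 at 1.37, and of these Itgav overlapped Itgbl1, and Itgbl1 overlapped Itga11, in the range over libraries. Itga8, a receptor subunit for nephronectin, had 0.868 and Itgb3, known from platelets and vessels, had 0.513. The gene length in the tables is the union of all exons. It is 9025 bases for Itga6 against 4310 for its principal transcript, and 8092 against 4013 for Itga7. The per-length levels of such genes are low estimates. The lengths lie closer together for Itga5 (4933 against 4382) and Itgb5 (3553 against 3282). The order of Itga7 and Itgb5, and that of Itga6 and Itga5, therefore depends on the length used and is given for this scale only.

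After TAC the order changed at Itgbl1. Its level per kb was 8.35 in WT TAC and 6.58 in Rad KO TAC, above Itgav at 3.38 and 3.14 with no overlap between libraries of the same group. The gene length of Itgav is 10744 bases against 7054 for its principal transcript, so this margin depends on the length used. In Rad KO sham the order of the 10 genes was that of WT sham, with Itgbl1 (1.96) below Itgav (3.38). On this scale Itgb1 stayed first and Itgb5 second in each of the 4 groups, and the rank of Itgb5 against Itga7 has the limit given above.

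**Figure D1:**
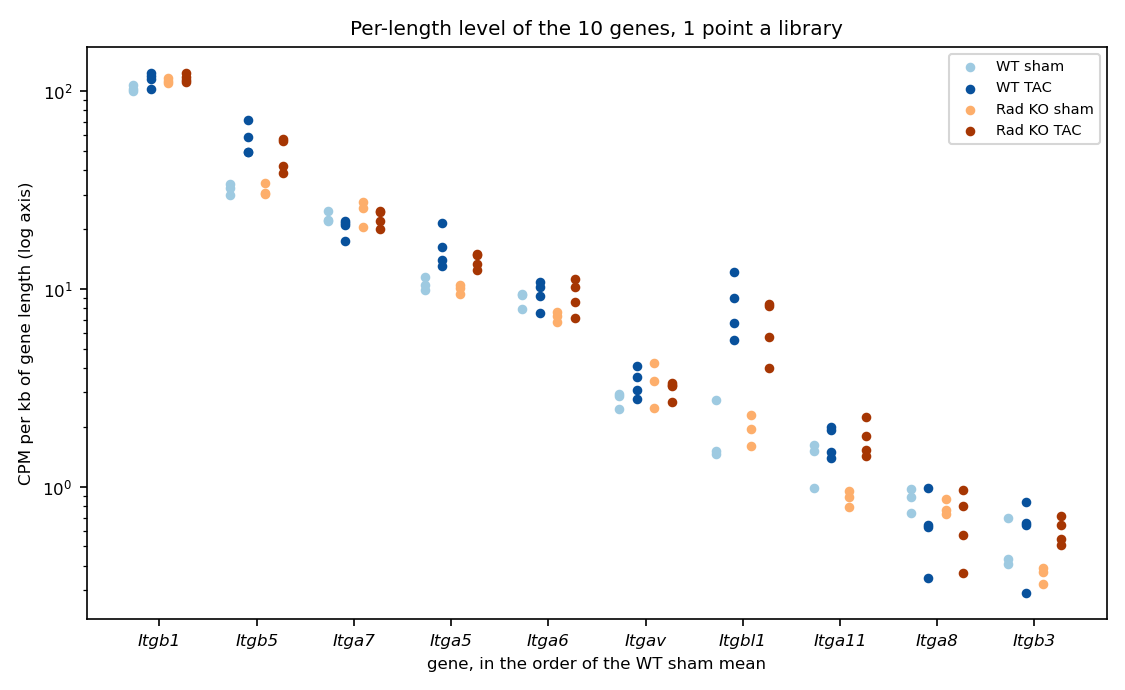
Level of each gene in CPM per kb of gene length (log axis), 1 point a library, coloured by group and ordered by the WT sham mean. Itgb1 lies near 100 in all groups, and the Itgbl1 points of both TAC groups lie above those of both sham groups.

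Over both labels, 4 of the 10 genes rose after TAC and 0 fell: Itgbl1, Itgb5, Itga5 and Itga11 were higher. Itgbl1 was 3.84-fold higher (95% interval 2.77 to 5.32), Itgb5 1.65-fold (1.40 to 1.94), Itga11 1.56-fold (1.23 to 2.00) and Itga5 1.46-fold (1.26 to 1.69). Over all 14731 genes tested in this fit of 14 libraries, 6.4% were called higher, and the members' median log2 fold change of 0.35 stood beside -0.00 for all genes. The list was chosen with earlier results of these data known, so the members' share and median describe these genes only. Itgbl1 ranked 9 by p among all genes tested, Itgb5 95, Itga5 251 and Itga11 947. With the Esr1 level as a covariate the same 4 were called, at log2 fold changes of 1.88 for Itgbl1, 0.67 for Itgb5, 0.79 for Itga11 and 0.50 for Itga5. Without WT sham 2 and 3 and Rad KO sham 2, edgeR called Itgbl1 (2.09), Itgb5 (0.70) and Itga11 (0.88) and not Itga5 (0.50, adjusted p = 0.0764). In bulk tissue, more cells of a type and more RNA per cell cannot be told apart.

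Itgbl1 (ENSMUSG00000032925, chromosome 14, 123659971 to 123975618, mm10, plus strand) showed the largest change of the 10 genes. In CPM, WT sham 1 to 3 read 6.45, 11.6 and 6.18 for Itgbl1, and WT TAC 1 to 4 read 23.3, 38.3, 51.3 and 28.5. Rad KO sham 1 to 3 read 6.85, 9.77 and 8.25, and Rad KO TAC 1 to 4 read 34.6, 35.6, 24.3 and 16.9. No TAC library of either label overlapped a sham library, and the highest level was that of WT TAC 3. The log2 fold change was 2.14 (SE 0.30, adjusted p = 0.00877) in WT and 1.75 (SE 0.26, adjusted p = 0.0152) in Rad KO, by edgeR's quasi-likelihood test with Benjamini-Hochberg adjustment, used throughout unless another tool is named. Over both labels it was 1.94 (SE 0.22, adjusted p = 0.000229). The call in WT was lost without WT sham 3 (1.99, adjusted p = 0.0679) and without WT sham 2 and 3 together (2.46, adjusted p = 0.275), a fit that left 1 sham library. In Rad KO it was lost without sham 1 (1.62, adjusted p = 0.0821), sham 2 (1.87, adjusted p = 0.0872) or sham 3 (1.74, adjusted p = 0.0693). Over both labels it held without each of the 14 libraries in turn.

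Itgb5 (ENSMUSG00000022817, chromosome 16, 33829665 to 33949338, plus strand) encodes the beta subunit that joins Itgav in a vitronectin receptor. Its CPM levels in WT were 120, 115 and 106 for sham 1 to 3, and 175, 208, 254 and 176 for TAC 1 to 4. In Rad KO they were 108, 123 and 108 for sham 1 to 3, and 198, 204, 149 and 137 for TAC 1 to 4. Every TAC library of a label again lay above every sham library of it, with the closest approach in Rad KO between TAC 4 and sham 2. Itgb5 rose in WT by 0.84 (log2, SE 0.14, adjusted p = 0.0145). In Rad KO its log2 fold change of 0.61 (SE 0.15) missed the threshold, with adjusted p = 0.0808, and passed it without Rad KO TAC 4 (0.71, adjusted p = 0.0239) and with DESeq2 (0.60, adjusted p = 0.00842). The WT call was lost without WT sham 2 (0.84, adjusted p = 0.0652), without WT sham 3 (0.80, adjusted p = 0.106) and without both (0.76, adjusted p = 0.575). Over both labels Itgb5 had 0.72 (SE 0.11, adjusted p = 0.000936) and was called without each library in turn.

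Itgb1 (ENSMUSG00000025809, chromosome 8, 128685654 to 128733200, plus strand), the partner of Itga5, Itga6, Itga7, Itga8 and Itga11, did not pass in any TAC comparison. It had 410 to 440 CPM in WT sham, 417 to 504 in WT TAC, 448 to 474 in Rad KO sham and 456 to 503 in Rad KO TAC, and the sham and TAC ranges overlapped within each label. Its log2 fold change over both labels was 0.10 (SE 0.06, adjusted p = 0.334), with a 95% interval of 0.978 to 1.17-fold. Itgb3 (ENSMUSG00000020689, chromosome 11, 104608000 to 104670476, plus strand) was the gene with the fewest reads, 26 to 89 counts a library. In WT its CPM levels overlapped, at 2.41, 4.10 and 2.56 for sham 1 to 3 and 3.78, 3.87, 4.96 and 1.72 for TAC 1 to 4. In Rad KO they did not, at 1.91, 2.29 and 2.19 for sham 1 to 3 and 4.19, 3.24, 3.01 and 3.78 for TAC 1 to 4. Its log2 fold change in Rad KO, 0.73 (SE 0.23), had adjusted p = 0.143, and over both labels it was 0.48 (SE 0.22, adjusted p = 0.170). Without WT TAC 4, its lowest library of that group, Itgb3 passed over both labels (0.60, adjusted p = 0.0292).

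Itga5 (ENSMUSG00000000555, chromosome 15, 103344286 to 103366763, minus strand) encodes the alpha subunit of the main fibronectin receptor. WT sham 1 to 3 held 57.0, 48.8 and 51.5 CPM of it, and WT TAC 1 to 4 held 80.0, 69.4, 106 and 64.3. Rad KO sham 1 to 3 held 46.5, 51.8 and 50.1 CPM, and Rad KO TAC 1 to 4 held 66.0, 74.5, 61.6 and 73.5. The TAC and sham libraries did not overlap in either label. The log2 fold change was 0.62 in WT (SE 0.16), which missed the threshold at adjusted p = 0.0737, and 0.48 in Rad KO (SE 0.10), which passed at adjusted p = 0.0432. In WT the gene passed without WT TAC 4 (0.70, adjusted p = 0.0439), with DESeq2 (0.62, adjusted p = 0.00998), without the filter on low counts (0.61, adjusted p = 0.0209) and in a model of all 4 groups (0.61, adjusted p = 0.0261). In Rad KO it lost its call in that model (0.47, adjusted p = 0.113) and without any library other than TAC 3 (0.43 to 0.50, adjusted p = 0.0521 to 0.173). Over both labels Itga5 rose by 0.54 (SE 0.10, adjusted p = 0.00293) and kept its call without each library in turn.

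Itgav (ENSMUSG00000027087, chromosome 2, 83724397 to 83806916, plus strand), the partner of Itgb5 and Itgb3, did not pass in any TAC comparison. Its levels were 26.7 to 31.7 CPM in WT sham, 29.8 to 43.8 in WT TAC, 27.0 to 45.3 in Rad KO sham and 28.8 to 36.0 in Rad KO TAC. In WT the log2 fold change was 0.29 (SE 0.14, adjusted p = 0.308), and in Rad KO it was -0.11 (SE 0.16, adjusted p = 0.774). Itga8 (ENSMUSG00000026768, chromosome 2, 12106632 to 12301922, minus strand) had 5.44 to 7.20 CPM in WT sham and 2.57 to 7.29 in WT TAC, 5.35 to 6.41 in Rad KO sham and 2.72 to 7.08 in Rad KO TAC. The TAC libraries of Itga8 were the more spread, with coefficients of variation of 40.3% in WT and 38.5% in Rad KO against 13.9% and 9.40% in sham. Over both labels the log2 fold change was -0.33 (SE 0.21, adjusted p = 0.357). Exons of Itgav and Itga8 overlap transcripts of the opposite strand over 5.9% and 5.05% of their length. With the use of strand in counting not given in the sources used here, reads of these pairs cannot be told apart there.

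The laminin receptor subunits Itga6 and Itga7 did not pass in either label. Itga7 (ENSMUSG00000025348, chromosome 10, 128933818 to 128958282, plus strand), the alpha subunit of mature striated muscle, had 178 to 200 CPM in WT sham, 141 to 179 in WT TAC, 167 to 223 in Rad KO sham and 162 to 200 in Rad KO TAC. Its log2 fold change was -0.14 over both labels (SE 0.08, adjusted p = 0.291), with a 95% interval of 0.807 to 1.02-fold. Itga6 (ENSMUSG00000027111, chromosome 2, 71745616 to 71858416, plus strand) had 71.4 to 85.6 CPM in WT sham, 68.0 to 98.5 in WT TAC, 61.6 to 68.8 in Rad KO sham and 64.6 to 102 in Rad KO TAC. Over both labels it had a log2 fold change of 0.22 (SE 0.10, adjusted p = 0.191).

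Itga11 (ENSMUSG00000032243, chromosome 9, 62677826 to 62783982, plus strand), a receptor subunit for fibrillar collagen known from fibroblasts, rose in Rad KO. In CPM, Rad KO sham 1 to 3 read 4.57, 4.07 and 4.90 for Itga11 and Rad KO TAC 1 to 4 read 11.6, 7.90, 9.33 and 7.36, with no overlap. WT sham 1 to 3 read 5.05, 8.32 and 7.75 and WT TAC 1 to 4 read 10.3, 9.94, 7.70 and 7.19, so that TAC 3 and 4 lay below sham 2. WT sham 1, with low Esr1, was the lowest WT library. In Rad KO the smallest Itga11 value was that of sham 2 (4.07 CPM), the only sham library of that label with low Esr1. The gap to the next sham library was smaller in Rad KO (4.07 against 4.57 CPM) than in WT (5.05 against 7.75 CPM). Rad KO sham 1 and 3, with high Esr1, read below WT sham 1. In TAC, Itga11 read 7.19 to 10.3 CPM in WT, where Esr1 was low. It read 7.36 to 11.6 CPM in Rad KO, where Esr1 was high. The part of Esr1 in these levels was not tested. The log2 fold change was 1.00 (SE 0.20, adjusted p = 0.0382) in Rad KO and 0.33 (SE 0.21, adjusted p = 0.474) in WT, and 0.65 over both labels (SE 0.17, adjusted p = 0.0202). Without WT sham 2 and 3 the WT value was 0.80 (adjusted p = 0.694, 1 sham library). In Rad KO the call held without TAC 2 or TAC 4 and was lost without each of the other 5 libraries, with adjusted p = 0.0668 to 0.159. Over both labels it was lost without WT sham 1 (0.59, adjusted p = 0.0514) or Rad KO sham 1 (0.60, adjusted p = 0.0542), 2 (0.57, adjusted p = 0.0523) or 3 (0.62, adjusted p = 0.0505).

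**Figure D2:**
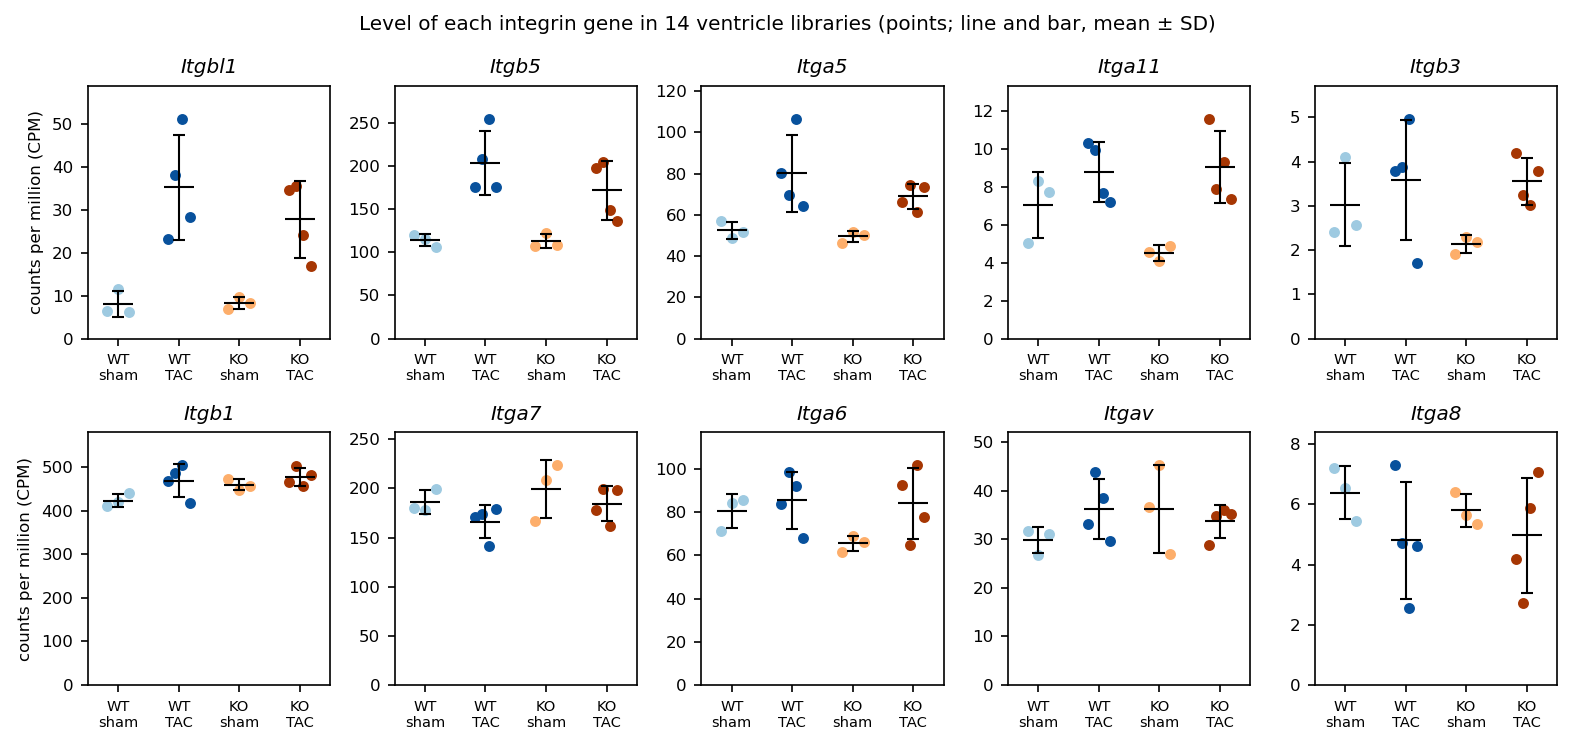
Level of each gene in CPM in the 14 libraries, 1 point a library, by group (KO is Rad KO), with a line and bar for mean ± SD of the 3 or 4 libraries. The TAC points lie above all sham points of the same label for Itgbl1, Itgb5 and Itga5, and for Itga11 and Itgb3 in Rad KO.

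Counted within each label, edgeR called 2 members higher in WT (Itgb5 and Itgbl1) and 3 in Rad KO (Itga5, Itga11 and Itgbl1), and 0 lower in each. Of all genes tested, 2% were called higher in WT (287 of 14323) and 1.05% in Rad KO (148 of 14122). At an unadjusted p under 0.05 there were 3 members in WT and 6 in Rad KO, where 17.4% and 17.3% of all genes stood. The median log2 fold change of the 10 genes was 0.27 in WT and 0.42 in Rad KO, beside -0.00 and 0.01 for all genes. Itga5, Itgb5 and Itgbl1 had every TAC library above every sham library in both labels, a pattern found in 2.75% of all genes in the 14-library fit. That fit reuses the libraries of the label fits and adds no independent evidence. In the authors' deposited table for WT, Itga5, Itgb5 and Itgbl1 had adjusted p under 0.05 (0.00886, 7.84e-07 and 1.99e-12), and in the authors' deposited table for Rad KO so did Itga5, Itga11, Itgb5 and Itgbl1 (0.0032, 0.00125, 0.00789 and 1.01e-08).

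**Figure D3:**
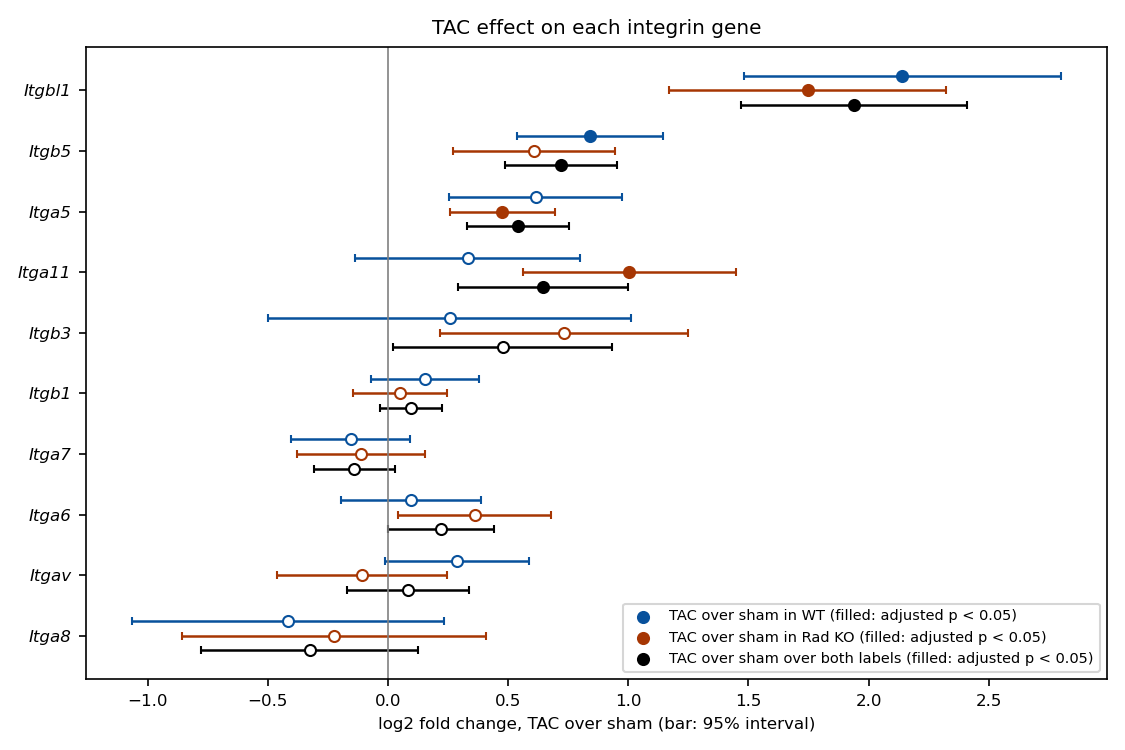
Log2 fold change of TAC over sham for each gene in WT (7 libraries), Rad KO (7 libraries) and over both labels (14 libraries), with bars for the 95% interval and filled points for an adjusted p under 0.05. Itgbl1 lies farthest to the right in each fit, at 2.14, 1.75 and 1.94, and the intervals of Itgb1, Itga7, Itga8 and Itgav cross 0 in all 3 fits.

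The make-up of the summed subunit RNA was then described per length, with no test. Among the 3 beta subunits, Itgb5 made up 23.6% ± 1.7 (SD, n = 3) of the summed CPM per kb in WT sham and 33.0% ± 2.7 (n = 4) in WT TAC, and 21.9% ± 1.7 and 29.0% ± 3.9 in Rad KO. Itgb1 went the other way, from 76.1% to 66.7% in WT and from 77.8% to 70.6% in Rad KO, while Itgb3 was under 1% throughout. Among the 6 alpha subunits, Itga7 was the most abundant in each group. Its mean share was 48.3% in WT sham, 39.8% in WT TAC, 52.3% in Rad KO sham and 44.1% in Rad KO TAC, with no library of the TAC group above a sham library of its label. Itga5 had 22.4% and 31.1% in WT and 21.4% and 27.0% in Rad KO. A share falls when another member rises, so the lower share of Itga7 does not by itself show a lower level.

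**Figure D4:**
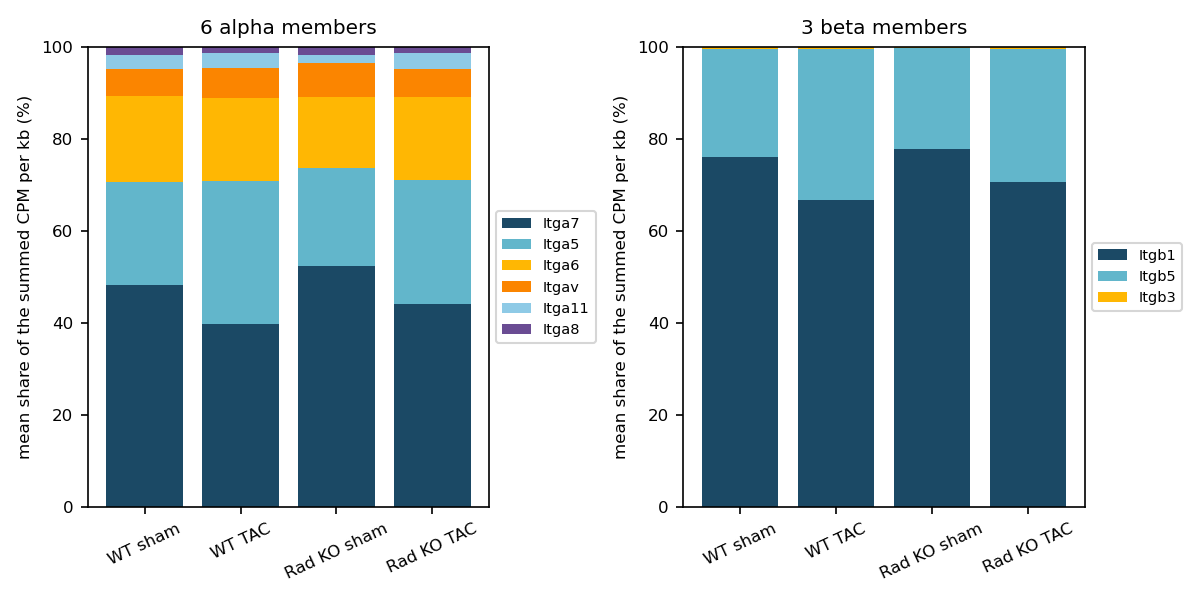
Mean share of each subunit in the summed CPM per kb of the 6 alpha (left) and 3 beta (right) subunits, by group. Itgb5 takes 23.6% of the beta sum in WT sham and 33.0% in WT TAC, and Itga7 takes 48.3% and 39.8% of the alpha sum.

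Libraries of the Rad KO and WT labels were compared within each operation. In TAC, Esr1 was 0.558 to 1.61 CPM in WT and 336 to 2471 CPM in Rad KO. Label and Esr1 level therefore cannot be told apart in TAC. In sham, 0 of the 10 genes passed, as did 0% of all 14731 genes by edgeR, with 847 genes at an unadjusted p under 0.05 and 17 called by DESeq2, 0 of them a member. Itga11 was the member nearest to a call, with a mean of 4.51 ± 0.420 CPM in Rad KO sham and 7.04 ± 1.75 CPM in WT sham. The log2 fold change was -0.63 (95% interval -1.11 to -0.14, adjusted p = 0.81). In TAC, 0 of 10 passed where 0.0136% of all genes did, and the members' log2 values ran from -0.34 for Itgbl1 (interval -0.90 to 0.22) to 0.15 for Itga7 (-0.08 to 0.38). The comparison does not show the labels to be alike: a Rad KO level of Itgbl1 lower by 0.90 or higher by 0.22 on the log2 scale lies within its interval.

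The difference between the TAC effects of the labels was tested directly, as Rad KO minus WT. By edgeR, 0 of 10 members and 0% of all genes passed, with 1 member and 754 genes at an unadjusted p under 0.05, and DESeq2 called 8 genes and 0 members. Itga11 had the largest difference, 0.67 (95% interval 0.04 to 1.30, adjusted p = 0.949), with a log2 effect of 1.00 in Rad KO and 0.33 in WT. It was 0.20 without WT sham 2 and 3, 0.13 without these and Rad KO sham 2, and 0.22 with the Esr1 level as a covariate. Itgbl1 had -0.40 (-1.31 to 0.51), Itgb5 -0.24 (-0.69 to 0.22), Itga5 -0.14 (-0.57 to 0.28), Itgav -0.40 (-0.88 to 0.08) and Itgb3 0.47 (-0.44 to 1.37). So the calls that differ by label, such as that of Itga11, were not shown to differ between the labels.

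Around these receptors, 15 of the 17 other integrin subunit genes could be tested, and 1 passed over both labels. This was Itga9, a partner of Itgb1 that binds tenascin and osteopontin, with 69.0 to 77.4 CPM in WT sham, 100.5 to 149 in WT TAC, 68.3 to 92.1 in Rad KO sham and 90.7 to 105 in Rad KO TAC. Its log2 fold change was 0.84 in WT (SE 0.14, adjusted p = 0.0135), 0.28 in Rad KO (SE 0.11, adjusted p = 0.243) and 0.55 over both labels (SE 0.12, adjusted p = 0.00605). Itgb6, a partner of Itgav best known in epithelium, fell in WT by 0.50 (SE 0.12, adjusted p = 0.0485) from 20.7 ± 1.91 to 14.6 ± 1.11 CPM and had 0.16 (SE 0.20) in Rad KO. The list's median over both labels was 0.05. Its 1 call over both labels, 6.67% of the genes tested, lay near the 6.4% of all genes called higher in that fit. In WT, 1 of the 15 was called higher and 1 lower, where 287 and 155 of all 14323 genes were. After Itga9, the collagen receptor subunit Itga1 was the most abundant of the other subunit genes in WT sham, at 71.6 CPM.

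Of 25 integrin ligand genes, 12 rose and 1 fell over both labels, with a median log2 fold change of 0.44, while 5 rose and 1 fell in WT and 4 rose in Rad KO. The fit over both labels called 6.4% of all genes higher, and the fits within a label called 2% in WT and 1.05% in Rad KO. The ligand list too was chosen with earlier results known. Thbs1, the matricellular thrombospondin-1, rose from 5.30 ± 0.606 to 27.2 ± 14.3 CPM in WT and from 4.55 ± 0.985 to 20.9 ± 6.82 CPM in Rad KO, a log2 fold change of 2.28 over both labels (SE 0.26, adjusted p = 0.000229). Periostin, Postn, a ligand of receptors with Itgav, rose by 2.50 (SE 0.36), from 56.6 ± 27.6 to 314 ± 174 CPM in WT and from 34.9 ± 1.98 to 200.3 ± 97.3 CPM in Rad KO. The CCN proteins Ctgf and Cyr61, which bind several integrins, rose by 2.64 (SE 0.40) and 0.89 (SE 0.14). Mfge8, a bridge between Itgav receptors and dying cells, rose by 0.47 (SE 0.07), and Ltbp1, which anchors latent TGF-beta in the matrix, fell by 0.53 (SE 0.11). Fn1 and Spp1, named after their values were seen, encode the fibronectin and osteopontin ligands of Itga5 and Itgav and rose by 0.74 (SE 0.17) and 2.11 (SE 0.52), the latter from means of 0.344 and 0.459 CPM in WT and Rad KO sham. In Rad KO the Spp1 ranges overlapped, up to 0.663 CPM in sham and from 0.344 CPM in TAC. Other ligands named in the same way did not rise alike. Vtn, encoding vitronectin, averaged 26.7 CPM in sham and 19.1 in TAC in WT, and 22.1 and 22.9 in Rad KO. Npnt, encoding nephronectin, averaged 1.36 and 1.08 CPM in WT and 1.08 and 1.17 in Rad KO. The most abundant ligand gene in WT sham was Col4a1 of the basement membrane, at 542.8 CPM.

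The lists of proteins on the inner side of the membrane were read against the same 6.4% of all genes called higher. Of 20 activator and linker genes tested, of 21 listed, 3 rose over both labels and 0 fell, with a median of 0.05: the actin crosslinker Actn1 (0.49, SE 0.11), the focal adhesion protein Zyx (0.44, SE 0.10) and talin-1, Tln1 (0.27, SE 0.06). Within a label 0 of these passed by edgeR, and 3 of 20 had an unadjusted p under 0.05 in each, no larger a share than that of all genes given above. Talin-1 stood at 195 ± 5.38 and 248 ± 22.8 CPM in WT sham and TAC and at 195 ± 6.54 and 221 ± 12.6 CPM in Rad KO. Of 20 signalling genes 3 rose and 0 fell, with a median of 0.06. These were Nedd9, a docking protein of focal adhesions (0.65, SE 0.13), Ptk2b, a kinase related to focal adhesion kinase (0.88, SE 0.21), and the tetraspanin Cd9 (0.48, SE 0.12). Nedd9 was also called in Rad KO alone (0.61, SE 0.12, adjusted p = 0.0328). Tensin-1, Tns1, was the most abundant linker gene in WT sham at 1361 CPM, and the laminin-receptor tetraspanin Cd151 the most abundant of the signalling list at 242 CPM.

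**Figure D5:**
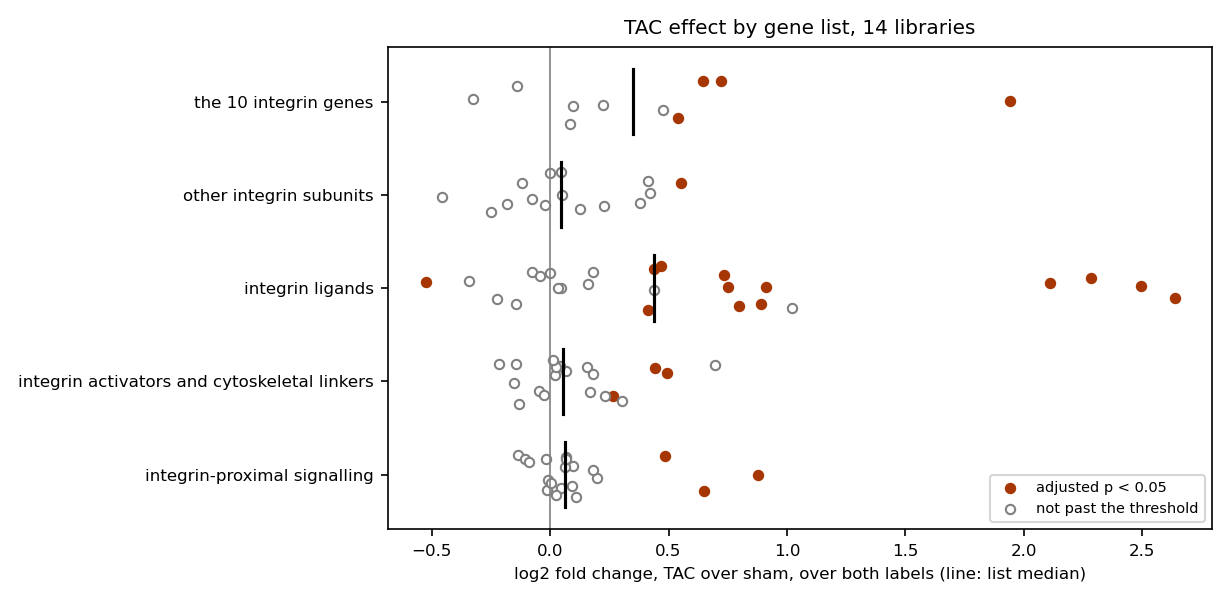
Log2 fold change of TAC over sham over both labels for each tested gene of 5 lists, 1 point a gene, filled where the adjusted p was under 0.05, with a line at the list median. The 10 integrin genes have a median of 0.35, the ligands 0.44, and the other subunits, the linkers and the signalling genes 0.05 to 0.06.

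Cell type markers were read beside these results, and their part in them was not tested. Over both labels, 6.4% of all 14731 genes were called higher and 700 genes lower, the background for the marker calls. The summed level of 9 fibroblast markers was 2177 to 3017 CPM in WT sham, 2287 to 3484 in WT TAC, 2336 to 2758 in Rad KO sham and 2074 to 4344 in Rad KO TAC, and 2 of 9, Pi16 and Mfap5, rose in the fit of both labels. The 10 mural cell markers summed to 1512 to 1933 CPM in WT sham and 915 to 1519 in WT TAC, and to 1802 to 2299 and 805 to 1908 in Rad KO, with Acta2 and Abcc9 lower over both labels. Acta2 and Abcc9 averaged 481 and 425 CPM in WT sham, a large part of the sum. The sum therefore does not by itself count mural cells. Of 8 endothelial and 8 macrophage markers 0 passed by edgeR in any TAC comparison, with 0 and 1 at an unadjusted p under 0.05 in Rad KO and 0 in WT. The platelet markers, which include the Itgb3 partner Itga2b, summed to 9.39 to 17.0 CPM and the lymphocyte markers to 0.984 to 3.13 CPM over all libraries. Of the 2 lymphocyte markers tested over both labels, the B-cell gene Ms4a1 rose (1.86, SE 0.56, adjusted p = 0.0414), from a mean of 0.0731 CPM in WT sham and 0.228 CPM in Rad KO sham. Of the 8 cardiomyocyte markers, Actn2 and Mybpc3 rose and Ryr2 fell over both labels.

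The promoters are shown for the 3 genes that parted TAC from sham in both labels. Over the 14 libraries, the root mean square distance between their standardised log2 levels was 0.263 for Itgb5 and Itgbl1, 0.471 for Itga5 and Itgb5, and 0.571 for Itga5 and Itgbl1. The genes were picked for sharing that pattern, so small distances between them follow in part from the choice and add no separate support. The sequences are RefSeq promoters of GRCm38.p6, 250 bases before to 50 after the start, 5′ to 3′ on the gene's strand, with GC boxes (GGGCGG on either strand) and CCAAT boxes (CCAAT on either strand) in capitals.
Itgb5 (chr16:33829415-33829714, plus strand): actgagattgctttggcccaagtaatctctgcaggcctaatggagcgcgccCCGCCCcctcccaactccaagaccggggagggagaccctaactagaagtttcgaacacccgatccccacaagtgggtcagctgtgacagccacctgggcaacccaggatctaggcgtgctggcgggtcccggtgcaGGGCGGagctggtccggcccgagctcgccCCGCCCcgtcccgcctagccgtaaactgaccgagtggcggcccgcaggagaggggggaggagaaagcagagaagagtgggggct
Itgbl1 (chr14:123659890-123660189, plus strand): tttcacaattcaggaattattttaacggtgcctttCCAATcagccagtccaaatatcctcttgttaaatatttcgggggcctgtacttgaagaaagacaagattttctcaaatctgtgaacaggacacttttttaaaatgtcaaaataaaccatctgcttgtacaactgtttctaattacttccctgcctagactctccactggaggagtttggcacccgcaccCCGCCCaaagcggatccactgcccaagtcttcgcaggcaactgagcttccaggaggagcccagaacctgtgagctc
Itga5 (chr15:103366742-103367041, minus strand): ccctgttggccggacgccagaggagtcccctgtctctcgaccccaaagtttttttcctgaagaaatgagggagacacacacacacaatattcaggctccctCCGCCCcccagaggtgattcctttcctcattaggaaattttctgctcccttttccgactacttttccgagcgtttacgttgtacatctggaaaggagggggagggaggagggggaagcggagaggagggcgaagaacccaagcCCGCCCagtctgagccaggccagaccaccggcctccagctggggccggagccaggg
Itgb5 held 3 GC boxes, Itga5 2, and Itgbl1 1 GC box and 1 CCAAT box, where 35.9% of 32534 promoters hold a GC box and 37.4% a CCAAT box. GC content was 65.7% for Itgb5, 58.7% for Itga5 and 45.3% for Itgbl1, against a median of 53.0%. The TATA box (TATAAA), AP-1 (TGANTCA), TEAD (GGAATG) and CArG motifs, found in 13.6%, 7.79%, 14.6% and 1.64% of promoters on either strand, were not matched in these 3 windows. A match is letters only, not a site in use.

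Among protein-coding genes with a mean of at least 50 counts, a pattern over the 14 libraries close to that of Itgbl1 was that of Svep1, a large matrix protein, at a distance of 0.195. The median distance over 10795 such genes was 1.36. For Itgb5 the nearest were Synpo2l, an actin-associated protein of heart muscle, at 0.194 and the phosphofructokinase gene Pfkp at 0.224. For Itga5 they were the kinase gene Nuak1 at 0.219 and Mafk, a small Maf transcription factor, at 0.275. Itga11 had more distant neighbours, the heparan sulphate proteoglycan Sdc1 at 0.383 and the adaptor gene Shc2 at 0.42. These distances describe the 14 libraries only, and the libraries share the TAC contrast for all of these genes.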

How the data were processed

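The 2 tables deposited by the authors are WT (24279 genes) and Rad KO (23925 genes), with a read count for every gene and library, per the file headers. Each table also holds the authors' log2 fold change between TAC and sham and an adjusted p-value, per the file headers. The submitters' processing notes name HISAT2, DESeq2, edgeR and mm10, with versions, roles, counter and annotation not given in the sources used here. Within each table, TAC was tested against sham on 7 libraries with the quasi-likelihood test of edgeR 4.0.16 (R 4.3.3), after TMM scaling and the filterByExpr filter (minimum count 10, minimum total 15), with Benjamini-Hochberg adjustment over all genes and a threshold of 0.05. The effect over both labels came from an additive model of 14 libraries, and the Rad KO against WT contrasts and the difference of TAC effects from a model of 4 groups, on the genes in both tables. All 10 members passed the filter in each comparison. CPM is TMM-scaled over the 14 libraries, and CPM per kb divides it by the deposited gene length. A 95% interval comes from the log2 fold change, its SE and the degrees of freedom implied by the p-values of the quasi-likelihood test. These were 10.43 in WT, 10.41 in Rad KO, 16.42 over both labels and 15.61 in the model of 4 groups. The 10 gene IDs and their coordinates matched GENCODE M21 for 10 of 10, and 7 of 10 had a RefSeq promoter. Figures used matplotlib 3.10.9 (Python 3.11.15), and 0 columns of per-sample values lacked a sample. Chi-square per degree of freedom between libraries of a group was at least 8.83, so no library was a copy of another. The scripts were tested on simulated data. Depth limits the rarest member to 26 to 89 counts a library.

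The members and lists were chosen with earlier results of these data known. Named genes were the 10 members, up to 5 genes past the threshold per pathway list by smallest p with its most abundant gene, 2 nearest genes for each member called over both labels, Rrad and Esr1. For the ligands, more called genes were named than this rule gives, and Fn1, Spp1, Vtn and Npnt were named outside it. A result for 1 gene that this rule names is not reported here. Alternatives were DESeq2 1.42.0, its size factors, no filter, the replicate number as a block, a model of 4 groups, leaving out each library or the sham libraries that stood apart by Esr1, and Esr1 as a covariate.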

Additional observations from a re-analysis of the deposited data

Results flagged for a closer look

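Itgav had 28.8 CPM in Rad KO TAC 1, below the 34.8 to 36.0 CPM of the other 3 Rad KO TAC libraries. Its gap to the nearest library was 0.843 of the group's range, past the critical value of Dixon's test for 4 libraries. Chance flags about 1 in 20 groups, and 20 groups of 4 libraries were read.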

How the results depend on the processing

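Of 938 values recomputed for single members, 862 kept their direction and side of the threshold, 26 lost their call, 10 gained one and 40 changed sign. The count of genes higher in WT, 287, was 588 with DESeq2, 495 with no filter, 13 to 397 leaving out 1 library (13 without WT sham 3) and 0 without WT sham 2 and 3, when 0 members were called. In Rad KO, 148 became 445, 367 and, with the replicate block, 299, and 5 (without sham 1) to 350 leaving out 1 library. Leaving out 1 library, 0 to 3 members were called in each label, and in Rad KO 4 were with DESeq2 or no filter. Over both labels, 943 was 611 to 1116 leaving out 1 library, 402 without WT sham 2 and 3, and 213 also without Rad KO sham 2. Calls between labels in sham, 0, were 17 with DESeq2 and 2 without these 3 libraries. In TAC, 2 became 96 with DESeq2, 21 with no filter, 1 with the block, 16 without these libraries, 0 with Esr1 as a covariate and 1 to 9 leaving out 1 library. For the difference, 0 became 8 with DESeq2 and up to 4 leaving out 1 library. The cause was not tested. Same-numbered libraries deviated from their groups with correlations of -0.162 to 0.155. Pairs with different numbers were not read beside these, so whether the numbers pair libraries is not settled. With the replicate block Itga5 gained its call in WT (0.68, adjusted p = 0.0352) and lost it in Rad KO (0.44, 0.0689), where Itgb5 gained one (0.69, 0.025).
Values without a call changed sign: Itgav over both labels to -0.017 without WT sham 2 and 3; Itgb5 in sham between labels to 0.00158 (DESeq2) and 0.00157 (its size factors); Itgb3 in TAC to 0.047 with the block. With Esr1 as a covariate in TAC, Itga11 had -0.38, Itgav 0.17 and Itgb1 -0.021. The difference was -0.00391 for Itga7 without WT sham 2 and 3, and for Itga5 0.012 also without Rad KO sham 2 and 0.027 with the covariate. Leaving out 1 library, the Rad KO TAC effect on Itgav ran from -0.29 to 0.072. Between labels in sham Itgb5 ran from -0.070 to 0.031 and Itgbl1 from -0.094 to 0.40. In TAC Itga6 ran from -0.12 to 0.084, Itga8 from -0.16 to 0.33, Itga11 from -0.10 to 0.13, Itgb1 from -0.031 to 0.057 and Itgb3 from -0.24 to 0.18. The difference ran from -0.23 to 0.025 for Itga5, -0.069 to 0.13 for Itga7 and -0.029 to 0.46 for Itga8.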
